A study of Mus musculus with 10 samples.

Results

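Kcnj14, Kcnk3, Kcnj8, Kcnn4 and Abcc9 encode 4 pore-forming subunits and 1 regulatory subunit of potassium channels, and they were followed by gene symbol, 5 of the 32889 genes in the expression table of a brown adipose tissue study. These genes were chosen with the fold changes of the same libraries known, so their levels and fold changes are given as a description, with no p-value. Whether the fit across all genes called them is recorded in the same way and supports nothing about them. RNA sequencing had been run on wild-type C57BL/6J mice in 3 groups: 3 obesity-prone libraries from mice on a high-fat diet (HFDhigh), 3 obesity-resistant libraries from mice on the same kind of diet (HFDlow) and 4 control libraries from mice on regular chow (ND). The labels give no age, sex, diet duration or rule by which a mouse was called prone or resistant, and they do not say whether each library stands for its own animal. P-values therefore measure only the spread between these samples, which may be technical.

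Potassium channels let potassium leave the cell along its gradient and so hold the membrane potential negative. Inward rectifiers (Kir) and the background channels of the K2P family set the resting potential, voltage-gated channels open on depolarisation, and calcium-activated channels open when intracellular calcium rises. In mouse brown adipocytes the K2P channel TASK-1, the product of Kcnk3, is known to restrain the response to adrenergic stimulation by limiting depolarisation and calcium entry. Kcnj14 encodes Kir2.4, Kcnj8 encodes Kir6.1, Abcc9 encodes the sulfonylurea receptor SUR2 that surrounds Kir6.1 in the ATP-sensitive channel of vascular smooth muscle and pericytes, and Kcnn4 encodes the intermediate-conductance calcium-activated channel, known in red blood cells as the Gardos channel and also present in immune cells.

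The 4 pore-forming genes share a short signature in the pore loop, the selectivity filter, whose backbone oxygens coordinate the potassium ions. The coding strand around it is shown because it is what these otherwise different channels have in common, with 60 bases each from the GENCODE M21 transcripts (GRCm38) and the 5 filter codons in capitals. The stretches lie in coding exons at chr7:45819612-45819671 (minus strand) for Kcnj14, chr5:30622178-30622237 (plus strand) for the second Kcnk3 pore, chr6:142566427-142566486 (minus strand) for Kcnj8 and chr7:24379174-24379233 (plus strand) for Kcnn4. The first Kcnk3 pore is spliced across an exon junction between chr5:30588569-30621919 (plus strand).
Kcnj14: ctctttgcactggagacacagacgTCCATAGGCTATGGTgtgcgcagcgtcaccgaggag
Kcnk3 first pore: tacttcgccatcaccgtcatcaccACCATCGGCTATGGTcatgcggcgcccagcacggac
Kcnk3 second pore: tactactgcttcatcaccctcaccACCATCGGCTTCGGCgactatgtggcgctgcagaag
Kcnj8: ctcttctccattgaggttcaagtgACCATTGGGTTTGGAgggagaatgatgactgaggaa
Kcnn4: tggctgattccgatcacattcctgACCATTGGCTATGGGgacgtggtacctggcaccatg
The fourth of the 5 filter codons reads tyrosine in Kcnj14, in the first Kcnk3 pore and in Kcnn4, and phenylalanine in the second Kcnk3 pore and in Kcnj8. Aligned without gaps on the filter, the Kcnj14 and Kcnj8 stretches were identical at 35 of 60 bases and the 2 pores of Kcnk3 at 34 of 60, while Kcnj8 and Kcnn4 were identical at 17 of 60, the lowest of the pairs compared. Kcnk3 carries 2 pore loops in 1 chain, the feature that defines the K2P family. Abcc9 forms no pore and has no filter.

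The libraries held 35583997 to 37327770 counts each, and the same fit across 19676 genes served every comparison. With a gene called changed at an adjusted p below 0.05 (edgeR's quasi-likelihood test, Benjamini-Hochberg adjustment over all genes tested), 730 genes rose and 647 fell in obesity-prone against control libraries, 19 rose and 9 fell in obesity-resistant against control libraries, and none of 19676 passed in obesity-prone against obesity-resistant libraries. In that last comparison edgeR gave 3030 genes an unadjusted p below 0.05, DESeq2 called 565 and limma on log2 FPKM called none. The comparisons of obesity-prone and of obesity-resistant with control share the control libraries and are not independent of each other. The tissue label was checked against brown adipocyte markers. Ucp1, the mitochondrial uncoupling protein of brown adipocytes, lay between 2882 and 10271 CPM (counts scaled to library size and corrected for library composition) over the 10 libraries. Libraries differed within groups. The summed level of 12 skeletal muscle markers lay between 24.6 and 92.5 CPM in obesity-prone, 26.5 and 782.7 in obesity-resistant and 26.6 and 932.1 CPM in control libraries, and the log2 fold changes of obesity-prone over control libraries had a median of -3.24 with no marker called. Obesity-prone replicate 3 was lowest in the summed level of 12 brown adipocyte markers and highest in that of 13 macrophage and of 8 erythrocyte markers, and control replicate 4 was highest of the control libraries in both of the last sums.

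One of the 5 genes, Kcnj14, was called in obesity-prone against control libraries, where 7% of all genes tested were called, 3.71% as higher and 3.29% as lower. None of the 5 was called in obesity-resistant against control libraries, where 0.142% of all genes were called (0.0966% higher, 0.0457% lower), or in obesity-prone against obesity-resistant libraries, where 0% were called in either direction. The libraries of the 2 groups did not overlap for 2 of the 5 genes in obesity-prone against control, Kcnj14 (higher) and Kcnk3 (lower), as for 20.3% of all genes tested (9.66% higher, 10.6% lower). They did not overlap for 3 of the 5 in obesity-prone against obesity-resistant libraries, Kcnj14 (higher), Kcnk3 and Kcnj8 (lower), as for 19.7% of all genes (9.99% higher, 9.75% lower). In obesity-resistant against control libraries all 5 overlapped, while 20.2% of all genes did not (10.5% higher, 9.71% lower). Since the 5 genes were picked from these comparisons, nothing is read from the counts.

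**Figure D1:**
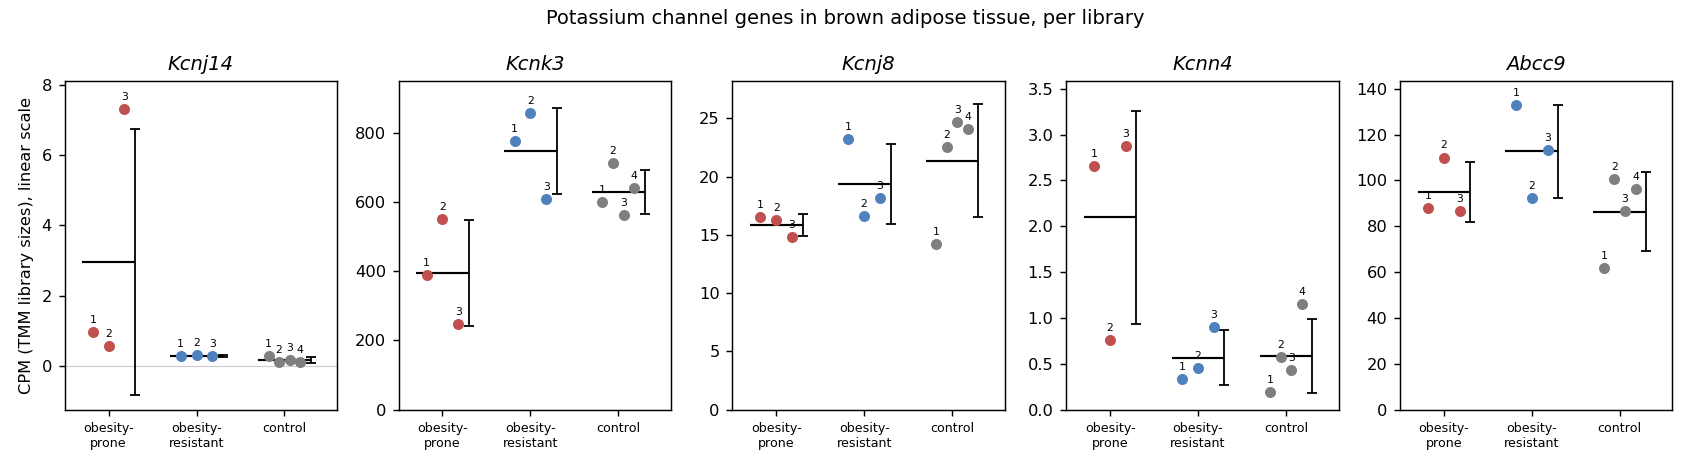
Level of each of the 5 genes in CPM (linear axes, one panel per gene) in the 3 obesity-prone, 3 obesity-resistant and 4 control libraries; points are numbered libraries, and the line with its whiskers is the mean ± SD, which runs below 0 for Kcnj14 because the SD of the obesity-prone libraries exceeds their mean. One obesity-prone library carries most of the Kcnj14 signal, at 7.32 CPM, and the 3 obesity-prone libraries lie below all others for Kcnk3, between 246.5 and 550.9 CPM.

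Kcnk3, the background channel, had the highest level per length of the 94 potassium channel genes read from a list (gene identifier 16527, chromosome 5, 30588170 to 30625270, GRCm38). Its mean over the 10 libraries was 177.3 FPKM (fragments per kilobase of transcript, scaled to library size), a level per length that ranked 237 of 17622 protein-coding genes. Next among the 94 came Kcnip4, an auxiliary protein of Kv4 channels, at a mean of 23.3 FPKM, Abcc9 at 13.1, Kcnj8 at 8.61 and Kcnab1, an auxiliary subunit of Kv1 channels, at 6.36 FPKM. Kcnk3 alone made up 35.3% to 58.2% of the summed FPKM of these 94 genes in obesity-prone libraries, 58.7% to 68.4% in obesity-resistant and 55.0% to 62.3% in control libraries.

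The level of Kcnk3 was 389.0, 550.9 and 246.5 CPM in the obesity-prone libraries, 775.6, 855.4 and 609.5 CPM in the obesity-resistant libraries, and 598.8, 712.3, 562.9 and 639.1 CPM in the control libraries. Every obesity-prone library lay below every obesity-resistant and every control library, with replicate 3 lowest and replicate 2 close to the lowest control, while the obesity-resistant and control libraries overlapped. The group means were 395.5 ± 152.3 CPM in obesity-prone (SD, n = 3), 746.8 ± 125.5 in obesity-resistant (n = 3) and 628.3 ± 64.1 in control libraries (n = 4). The log2 fold change of obesity-prone libraries was -0.67 ± 0.24 (SE) over control and -0.92 ± 0.25 over obesity-resistant libraries, and that of obesity-resistant libraries over control was 0.25 ± 0.23, none past the threshold of the whole-table fit. Per length, the means were 118.2 ± 44.1 FPKM in obesity-prone, 224.9 ± 43.4 in obesity-resistant and 185.8 ± 27.4 in control libraries.

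The size of the Kcnk3 difference depended on which obesity-prone library was in the fit. Without replicate 2 the log2 fold change was -0.98 against control and -1.23 against obesity-resistant libraries, and without replicate 3 it was -0.42 against control and -0.67 against obesity-resistant libraries.

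Brown adipocyte markers were measured beside Kcnk3. Their summed level over 12 genes, all of which passed the filter, lay between 7444.1 and 14036.6 CPM in obesity-prone, 14630.2 and 15782.2 in obesity-resistant and 13153.0 and 16374.5 CPM in control libraries. The 12 included Adipoq, Plin1, Fabp4 and Lep, adipocyte genes that are not limited to brown adipocytes. Ucp1 (2882.1 to 10270.8 CPM) and Fabp4 (1938.5 to 3366.5 CPM) were the largest terms, and Lep ranged from 2.12 to 394.9 CPM. The sum and the share below are therefore no measure of brown adipocyte content alone. The lowest sum was in obesity-prone replicate 3, which also held the lowest Kcnk3, while among the control libraries the highest sum was in replicate 3, the control library with the lowest Kcnk3. In obesity-prone against control libraries 1 of the 12 markers rose and 1 fell, with a median log2 fold change of -0.47, and none was at 0 in any library. In obesity-resistant against control libraries none was called and the median was 0.00. Kcnk3 as a share of the summed markers was 3.27%, 3.93% and 3.31% in the obesity-prone libraries, 5.3%, 5.42% and 4.16% in the obesity-resistant libraries, and 4.55%, 4.64%, 3.44% and 3.92% in the control libraries. By this share obesity-prone and control libraries overlapped, and obesity-prone libraries stayed below all obesity-resistant ones. The part of the markers in the Kcnk3 difference was not tested, and in bulk tissue fewer cells of a type and less RNA per cell cannot be told apart.

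The first exon of Kcnk3 overlaps the lncRNA gene Gm9899, on the opposite strand, by 450 bases. No strand setting is stated, so reads of the shared bases cannot be assigned to a strand, and 6.23% of the 31-base words of the Kcnk3 transcript also occur in transcripts of other genes, Gm9899 first among them. Gm9899 averaged 82.6 ± 42.0 CPM in obesity-prone, 122.9 ± 24 in obesity-resistant and 108.0 ± 6.12 CPM in control libraries (SD). Its log2 fold change in obesity-prone libraries was -0.39 over control and -0.57 over obesity-resistant libraries, and in obesity-resistant libraries 0.19 over control, and it was not called in any of the 3.

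Kcnj14, the inward rectifier Kir2.4 (gene identifier 211480, chromosome 7, 45816467 to 45824747), was a rare transcript that was high in the obesity-prone libraries. It had 37, 21 and 278 counts in the obesity-prone libraries, 10, 12 and 10 in the obesity-resistant libraries, and 10, 4, 6 and 4 in the control libraries. On the CPM scale these were 0.954, 0.571 and 7.32 in obesity-prone, 0.278, 0.322 and 0.274 in obesity-resistant, and 0.28, 0.116, 0.171 and 0.107 in control libraries. All 3 obesity-prone libraries lay above the other 7, and replicate 3 lay far above the other obesity-prone libraries, 12.8-fold over the lowest of them. The group means were 2.95 ± 3.79 CPM in obesity-prone (SD, n = 3), 0.291 ± 0.0267 in obesity-resistant (n = 3) and 0.168 ± 0.0793 CPM in control libraries (n = 4). Per length, Kcnj14 averaged 0.391 FPKM over the 10 libraries and ranked 12637 of 17622 protein-coding genes.

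Kcnj14 was 17.2-fold higher in obesity-prone than in control libraries, a log2 fold change of 4.10 ± 0.84 (SE). It was 3.32 ± 0.87 for obesity-prone over obesity-resistant libraries and 0.78 ± 0.95 for obesity-resistant over control libraries. Obesity-prone replicate 3 set most of the size: without it the log2 fold change was 2.16 against control and 1.38 against obesity-resistant libraries. Without it and control replicate 4 together it was 1.99 against control. The call against control was lost without control replicate 1, 2 or 3, at log2 fold changes of 4.46, 3.97 and 4.11, and in the fit of those groups alone, at 4.11. Limma on log2(FPKM + 0.5) did not call it either, at 1.17.

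Reads of Kcnj14 can be shared with a pseudogene. Of the 2651 words of 31 bases in its transcript, 955 (36.0%) also occur in another gene's transcript, chiefly the processed pseudogene Gm5522 on chromosome 1. Gm5522 has no row in the expression table. The counts of Kcnj14 are uncertain for reads of these words, and the share of its counts concerned was not measured. Its neighbours on chromosome 7, Cyth2 at a distance of 2144 bases and Grwd1 at 475 bases, were not called in any comparison.

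**Figure D2:**
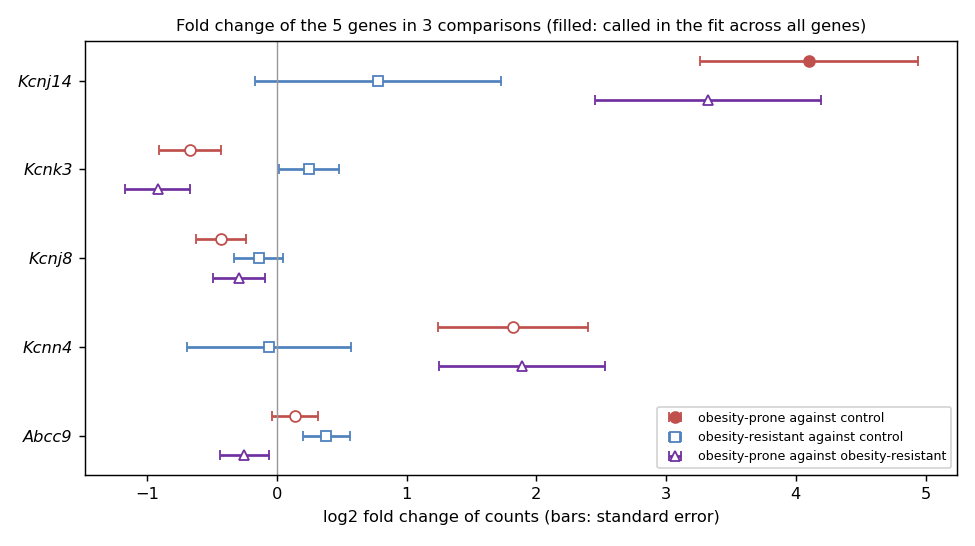
Log2 fold change ± SE of the 5 genes in the 3 comparisons (obesity-prone over control, obesity-resistant over control, obesity-prone over obesity-resistant), from the fit across the 10 libraries. Kcnj14 has the widest range, 4.10, 0.78 and 3.32, and Kcnk3 is at -0.67, 0.25 and -0.92.

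The genes whose profile over the 10 libraries was most like that of Kcnj14, by the root mean square difference of centred log2 CPM among 12480 protein-coding genes, were Inhbb, the beta B subunit of inhibin and activin (0.49), Sncg, gamma-synuclein (0.57), Mest, an imprinted gene known for its rise with adipose tissue expansion in mice (0.58), Bcat1, the cytosolic branched-chain aminotransferase (0.61), and Slc6a13, a GABA transporter (0.63). The centred profile of Kcnj14 itself had a root mean square of 1.54. Inhbb had 3.77, 1.9 and 19.4 CPM in the obesity-prone libraries, 1.17, 0.886 and 2.36 in the obesity-resistant libraries, and 1.82, 0.869, 0.855 and 0.884 CPM in the control libraries. Mest had 29.4, 11.8 and 160.5 CPM in the obesity-prone libraries, 7.79, 7.17 and 8.66 in the obesity-resistant libraries, and 7.49, 8.28, 6.81 and 11.3 CPM in the control libraries. As for Kcnj14, obesity-prone replicate 3 was by far the highest library of both and obesity-prone replicate 1 came next.

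Most like Kcnk3 were Dbt, a subunit of the branched-chain keto acid dehydrogenase complex (0.16), Slc4a4, a sodium bicarbonate cotransporter (0.16), Rnf152, a ubiquitin ligase (0.18), Lpl, lipoprotein lipase (0.19), and Adat2, a tRNA adenosine deaminase subunit (0.19), against a root mean square of 0.495 for the centred profile of Kcnk3. Lpl had 3103.4, 4523.6 and 2935.8 CPM in the obesity-prone libraries, 7065.4, 6201.9 and 4956.2 in the obesity-resistant libraries, and 5168.9, 6400.5, 5732.7 and 5987.2 CPM in the control libraries. Within the obesity-prone group Lpl was lowest in replicate 3 and highest in replicate 2, the order of Kcnk3. These genes were selected for their likeness over the same libraries, so their group differences carry no further evidence.

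**Figure D3:**
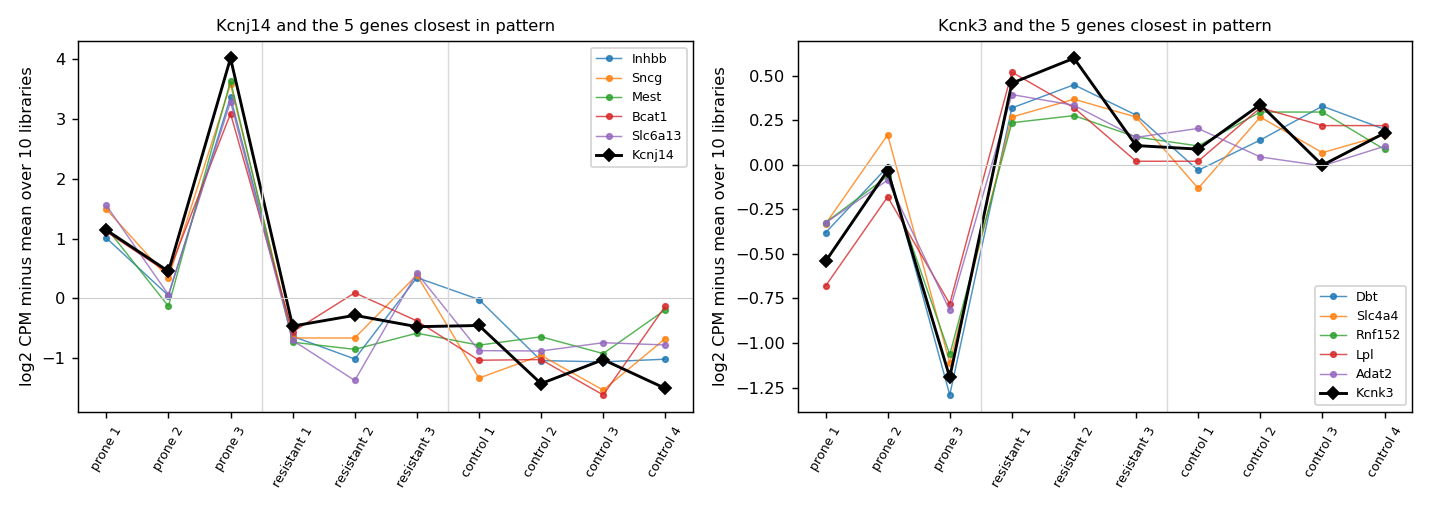
Centred log2 CPM of Kcnj14 and of Kcnk3 with the 5 protein-coding genes most like each, library by library, obesity-prone libraries first, then obesity-resistant, then control. The Kcnj14 set peaks in obesity-prone replicate 3, and the Kcnk3 set is lowest there.

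Kcnj8 and Abcc9, the pore and the sulfonylurea receptor of the vascular ATP-sensitive channel, are neighbours on chromosome 6, 16247 bases apart (Kcnj8, identifier 16523, 142564837 to 142571614; Abcc9, identifier 20928, 142587862 to 142702766). Kcnj8 had 16.5, 16.3 and 14.8 CPM in the obesity-prone libraries, 23.2, 16.6 and 18.2 in the obesity-resistant libraries, and 14.2, 22.5, 24.7 and 24.1 CPM in the control libraries. The obesity-prone libraries lay below all obesity-resistant ones, at the closest 16.5 against 16.6 CPM, and control replicate 1 was the lowest library of all. The log2 fold change of Kcnj8 in obesity-prone libraries was -0.43 ± 0.19 (SE) over control and -0.29 ± 0.20 over obesity-resistant libraries, and in obesity-resistant libraries -0.14 ± 0.19 over control.

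Abcc9 had 88.1, 110.0 and 86.6 CPM in the obesity-prone libraries, 132.8, 92.3 and 113.1 in the obesity-resistant libraries, and 62.0, 100.6, 86.8 and 96.3 CPM in the control libraries. The groups overlapped, and control replicate 1 was again the lowest library. For Abcc9 it was 0.14 ± 0.18 and -0.25 ± 0.19 in the same comparisons of obesity-prone libraries, and 0.38 ± 0.18 in obesity-resistant over control libraries. Neither gene was called in any of the 3 comparisons. The antisense lncRNA gene 5330439B14Rik, which has no row in the table, overlaps 11868 bases of Abcc9, and 4.33% of the 31-base words of the Abcc9 transcript occur in other transcripts, while for Kcnj8 the share was 0.0%.

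Per length, the receptor was more abundant than its pore in every library. The ratio of Abcc9 to Kcnj8 FPKM was 1.59, 2.02 and 1.75 in the obesity-prone libraries, 1.71, 1.66 and 1.86 in the obesity-resistant libraries, and 1.31, 1.33, 1.06 and 1.2 in the control libraries. The libraries of both high-fat diet groups lay above all control libraries, with means of 1.79 ± 0.215 in obesity-prone, 1.74 ± 0.101 in obesity-resistant and 1.23 ± 0.127 in control libraries (SD). This ratio was formed after the levels of both genes were known and was not tested. Abcc9 can also pair with other pores, so the ratio counts transcripts and not channel complexes.

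**Figure D4:**
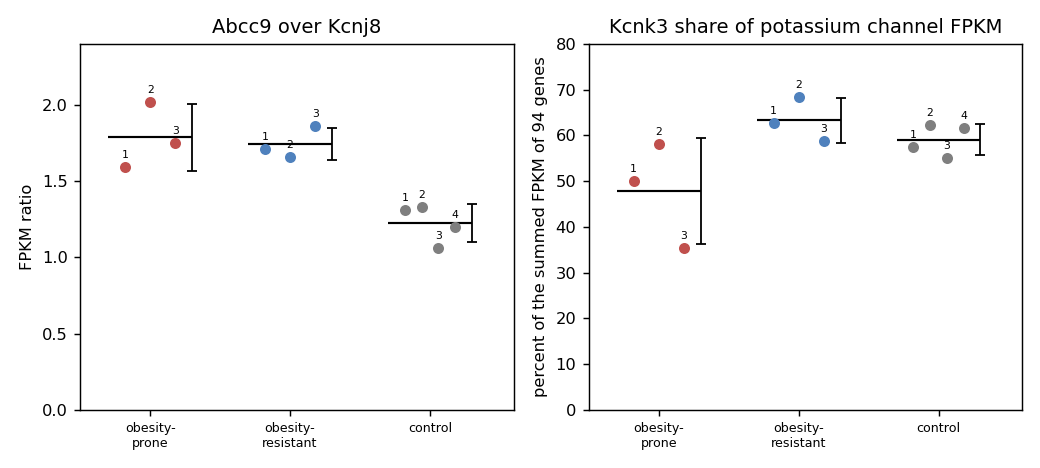
Left, the ratio of Abcc9 to Kcnj8 in FPKM; right, Kcnk3 as a percentage of the summed FPKM of 94 potassium channel genes; points are numbered libraries in the obesity-prone, obesity-resistant and control groups, and lines with whiskers are the mean ± SD. The ratio lies between 1.59 and 2.02 in the 6 high-fat diet libraries and between 1.06 and 1.33 in the 4 control libraries, and the Kcnk3 share is lowest in obesity-prone replicate 3, at 35.3%.

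Markers of the vessel wall were measured beside this pair. The summed level of 12 vascular smooth muscle and pericyte markers lay between 945.3 and 1136.1 CPM in obesity-prone, 835.3 and 957.5 in obesity-resistant and 879.9 and 1032.9 CPM in control libraries. None of the 12 was called in any comparison, and their median log2 fold change was 0.10 in obesity-prone against control and -0.23 in obesity-resistant against control libraries. The sum of 10 endothelial markers lay between 1319.8 and 1499.4 CPM in obesity-prone, 1162.6 and 1466.5 in obesity-resistant and 828.0 and 1434.4 CPM in control libraries, with control replicate 1, the library lowest in Kcnj8 and Abcc9, at 828.0 CPM. The part of the vascular markers in the levels of Kcnj8 and Abcc9 was not tested.

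Kcnn4, the calcium-activated channel (gene identifier 16534, chromosome 7, 24369826 to 24385212), was also a rare transcript, ranking 12262 of 17622 protein-coding genes by mean FPKM. It had 2.66, 0.761 and 2.87 CPM in the obesity-prone libraries, 0.334, 0.457 and 0.905 in the obesity-resistant libraries, and 0.196, 0.579, 0.428 and 1.15 CPM in the control libraries. Obesity-prone replicates 1 and 3 lay above all other libraries, but replicate 2 lay within the range of both other groups. The group means were 2.10 ± 1.16 CPM in obesity-prone (SD, n = 3), 0.565 ± 0.301 in obesity-resistant (n = 3) and 0.588 ± 0.407 CPM in control libraries (n = 4). The log2 fold change of obesity-prone libraries was 1.82 ± 0.58 (SE) over control and 1.89 ± 0.64 over obesity-resistant libraries, and that of obesity-resistant over control libraries was -0.06 ± 0.63, none past the threshold. Without obesity-prone replicate 2 it was 2.22 against control and without control replicate 4 it was 2.38.

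Markers of red cells and macrophages were highest in obesity-prone replicate 3, the library with the highest Kcnn4, at 2.87 CPM against 2.66 CPM in replicate 1. The summed level of 8 erythrocyte markers was 4760.8, 2419.6 and 22227.1 CPM in the obesity-prone libraries, between 708.9 and 2549.0 CPM in the obesity-resistant and between 822.2 and 6163.3 CPM in the control libraries, the highest of which was replicate 4. None of the 8 was called in obesity-prone against control libraries, at a median log2 fold change of 2.10. The summed level of 13 macrophage markers was 401.7, 209.6 and 617.6 CPM in the obesity-prone libraries, between 142.8 and 175.2 CPM in the obesity-resistant and between 141.3 and 248.8 CPM in the control libraries, again highest in replicate 4. Of the 13, 3 rose in obesity-prone against control libraries, and the median log2 fold change was 1.26. T and NK cell markers summed to 1.66 to 2.68 CPM in obesity-prone, 1.37 to 1.7 in obesity-resistant and 2.05 to 4.28 CPM in control libraries, with Cd3d, Cd2 and Klrb1c at 0 in some libraries. The part of red cells and macrophages in the Kcnn4 level was not tested.

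The other potassium channel genes were read from a list of 102 pore-forming and auxiliary subunits, of which 94 were found in the table and 64 passed the filter on low counts. Leaving out the 5 genes above, 59 were tested. In obesity-prone against control libraries 1 of the 59 rose and 6 fell, where 3.71% of all genes tested rose and 3.29% fell. An unadjusted p below 0.05 was reached by 26 of the 59 and by 5537 of the 19676 genes tested, and the median log2 fold change of the 59 was -0.08 against 0.00 for all genes tested. Of the 26 voltage-gated genes tested 1 rose and 5 fell, of 11 calcium-activated genes and their partners 1 fell, and none was called among 5 inward rectifiers, 1 sulfonylurea receptor, 5 K2P channels and 11 auxiliary subunits. In obesity-resistant against control libraries edgeR called none of the 59, with 8 at an unadjusted p below 0.05 and a median of -0.08 against -0.01 for all genes. There limma called none and DESeq2 called 7 of the 59, beside 1138 of all 19676 genes. With the replicate number as a block, 382 genes (1.94%) and 3 of the 59 passed in that comparison, against 28 and none without it. Of the 3, 1 fell, and Amigo1, an auxiliary protein of Kv2 channels, and Kcng4, an electrically silent voltage-gated subunit, rose. Both are named here after their values were seen. With the block their log2 fold changes were 0.76 (adjusted p = 0.043, edgeR) and 2.11 (adjusted p = 0.038). Without it they were 0.76 (adjusted p = 0.079, edgeR) and 1.9 (adjusted p = 0.065), and neither gene was called. For obesity-prone against obesity-resistant libraries edgeR called none, with 17 at an unadjusted p below 0.05 and a median of -0.06 against -0.01. There limma called none and DESeq2 called 2 of the 59, beside its count over all genes given above. Nothing is read from the DESeq2 counts.

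**Figure D5:**
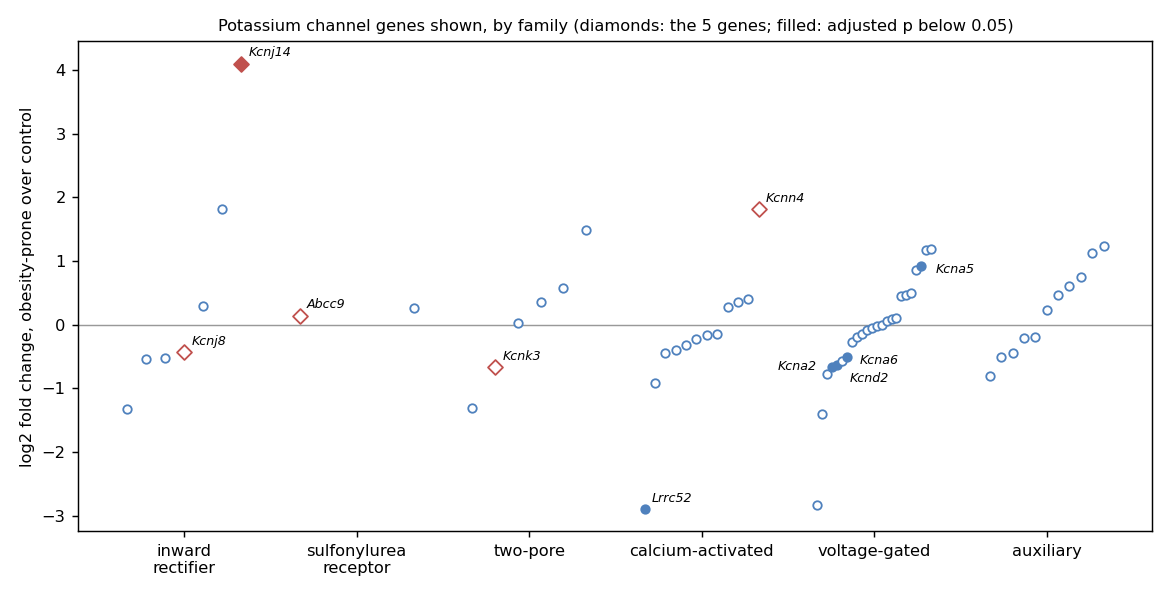
Log2 fold change in obesity-prone against control libraries for potassium channel genes that passed the filter, ordered within each family; diamonds mark the 5 genes of this account, filled symbols mark genes with an adjusted p below 0.05, and the two-pore family is K2P. Among the other genes Kcna5 is the 1 filled point above 0, and the filled points of Kcna2, Kcna6, Kcnd2 and Lrrc52 lie below it.

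Kcna5, the voltage-gated channel Kv1.5, was the gene that rose. It had 18.6, 24 and 28.4 CPM in the obesity-prone libraries, 22, 17.2 and 17.6 in the obesity-resistant libraries, and 11.4, 13.5, 14.3 and 10.7 CPM in the control libraries. Both high-fat diet groups lay above all control libraries. The log2 fold change in obesity-prone against control libraries was 0.92 ± 0.16 (SE, adjusted p = 0.018, edgeR's quasi-likelihood test), and in obesity-resistant against control libraries it was 0.60 ± 0.16 (adjusted p = 0.11).

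Lrrc52, an auxiliary gamma subunit of the Slo family of channels, had the lowest fold change of the 6 that fell. Its level was 0.49, 1.33 and 0.29 CPM in the obesity-prone libraries, 4.62, 4.78 and 2.6 in the obesity-resistant libraries, and 2.1, 5.5, 4.45 and 9.0 CPM in the control libraries. Every obesity-prone library lay below the other 7, a log2 fold change of -2.90 ± 0.59 against control libraries (adjusted p = 0.026, edgeR). Against obesity-resistant libraries the log2 fold change was -2.51 ± 0.61, which did not pass (adjusted p = 0.23).

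Another 3 genes that fell in obesity-prone against control libraries were voltage-gated channels. Kcna2 (Kv1.2) averaged 10.6 ± 1.61 CPM in obesity-prone and 16.8 ± 2.05 CPM in control libraries, a log2 fold change of -0.66 ± 0.14 (adjusted p = 0.029, edgeR). Kcnd2 (Kv4.2) averaged 5.63 ± 0.563 CPM in obesity-prone and 8.78 ± 1.47 CPM in control libraries, at -0.64 ± 0.15 (adjusted p = 0.037). Kcna6 (Kv1.6) averaged 3.19 ± 0.276 CPM in obesity-prone and 4.54 ± 0.326 CPM in control libraries, at -0.51 ± 0.13 (adjusted p = 0.041). All 3 were lower in each obesity-prone library than in any obesity-resistant or control library. Of all genes tested, 10.6% lay lower without overlap against control and 9.75% against obesity-resistant libraries. These 3, like Kcna5 and Lrrc52, were named for their call against control, so nothing is read from their lack of overlap. None of the 3 passed in obesity-prone against obesity-resistant libraries.

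The calls among the 7 genes depended on single libraries. None of the 7 passed without control replicate 3, 1 passed without control replicate 1, 1 without control replicate 2, and 1 each when obesity-prone replicate 1 or 3 was left out. All 7 passed without control replicate 4, 6 without obesity-prone replicate 2 and 4 without each obesity-resistant replicate. Kcnip4 and Kcnab1, the auxiliary subunits among the 5 most abundant listed genes, were not called in obesity-prone against control libraries, at log2 fold changes of -0.21 ± 0.10 (adjusted p = 0.20, edgeR) and 0.23 ± 0.15 (adjusted p = 0.35).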

How the data were processed

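Total RNA of brown adipose tissue was sequenced in 10 libraries (3 obesity-prone, 3 obesity-resistant, 4 control). Per the labels' protocols, the authors aligned clean reads with Bowtie2 2.2.5 to a company-built gene set and computed expression with RSEM 1.2.12. HISAT2 2.0.4 and the build GRCm38.p6 are named per the submitters' processing notes. The deposited table holds RSEM expected counts per gene and library, 30.4% of them not whole (tolerance 1e-06), and the authors' FPKM values. That unit was inferred: the scale followed the count totals to within 0.093%, against gaps of up to 3.29% for TPM. Another 6 columns hold the authors' group means and were not used. Strand setting, annotation release and batch are not given in the sources used here. Of 25017 numeric identifiers, 24350 matched RefSeq.

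Expected counts were rounded and analysed with edgeR 4.0.16 (R 4.3.3): TMM factors, filterByExpr (minimum count 10, 19676 genes kept), and robust quasi-likelihood fitting of the 3 group means to the 10 libraries together (7 residual degrees of freedom), with Benjamini-Hochberg adjustment. The filter kept all 5 genes described, Kcnj14 only with the obesity-prone libraries included. In the fit of obesity-resistant and control libraries alone it did not pass. CPM used TMM library sizes, centred log2 CPM a prior count of 2. Depth was 35583997 to 37327770 counts per library, which limits precision for genes with few counts. The script was tested on simulated counts with 200 changed genes, drawn with the same dispersion for every gene and no outlying library. That run checked the code and does not stand for the spread of these libraries. Alternatives were DESeq2 1.42.0, RLE factors, other filters (none, or 1 CPM in 3 libraries), limma 3.58.1 on log2(FPKM + 0.5) or log2(FPKM + 0.1), fitting a pair of groups alone, the replicate block, a skeletal muscle score as covariate, and leaving out libraries. The genes named were the 5 described, the other listed potassium channel genes that changed, the 5 listed with the highest mean FPKM, the 5 protein-coding genes of at least 1 mean CPM most like Kcnj14 and like Kcnk3, and chromosomal neighbours; some genes that the rule names are not reported here, though they are included in the counts. Members and lists were chosen with earlier results of these data known. No channel protein sequence was used here. The labels give no reason to pair replicate numbers across groups. For obesity-resistant and control libraries the deviations of all 3 same-number pairs correlated at 0.121 to 0.187, so blocked counts are given beside that comparison. Obesity-resistant replicate 1 correlated more with control replicate 4 (0.254), and replicate 3 more with control replicate 2 (0.242), than with their own numbers. These values do not establish a pairing, and control replicate 4 has no partner.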

Additional observations from a re-analysis of the deposited data

How the results depend on the processing

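The number of genes called depended on the processing. Of the fold changes of the 5 described genes under alternatives, 289 moved by less than the larger within-group SD of the gene's log2 CPM and 7, all of Kcnj14, moved further. A gene with a wide spread can move far and still be among the 289. In obesity-prone against control libraries these include Kcnj14 at 2.23 (limma, log2(FPKM + 0.1)) against 4.10 as reported. They also include Kcnn4 at 0.97 (limma, log2(FPKM + 0.5)) against 1.82. The tally is therefore no measure of stability. The sign changed in 7 values, all of Kcnn4 in obesity-resistant against control libraries, which was -0.06 as reported and 0.01 to 0.50 in these. Calls of the described genes not given above came from DESeq2 and from leaving out obesity-prone replicate 2 for Kcnk3 in both comparisons of obesity-prone libraries, for Kcnj14 against obesity-resistant and for Kcnn4 against control libraries, and from leaving out control replicate 4 for Kcnn4 against control. For obesity-prone against control libraries the count was 3138 with DESeq2, 66 with only these groups in the fit, 634 with the skeletal muscle score and 2635 without obesity-prone replicate 3 and control replicate 4 together, and leaving out 1 library gave 76 to 3040. For obesity-resistant against control it was 1138 with DESeq2, 76 with no filter, 68 with the stricter filter, 391 with only these groups, 382 with the replicate block, 55 with the muscle score and 2212 without that library pair, and leaving out 1 gave 3 to 864. For obesity-prone against obesity-resistant it was 565 with DESeq2 and 0 to 871 on leaving out 1.

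Of the 59 other potassium channel genes, 7 were called in obesity-prone against control libraries. The count was 15 with DESeq2, 4 with limma at either added constant, 0 with only these groups, 4 with the muscle score, 13 without the library pair and 0 to 15 on leaving out 1. For obesity-resistant against control it was 7 with DESeq2, 1 with no filter, 3 with only these groups, 3 with the replicate block, 5 without the library pair and 0 to 3 on leaving out 1. For obesity-prone against obesity-resistant it was 2 with DESeq2 and 0 to 4 on leaving out 1. The cause of these differences was not tested. In the other comparisons the same-number pairs did not all correlate positively. The correlation of their deviations lay between -0.146 and -0.086 for obesity-prone and control and between -0.108 and 0.206 for obesity-prone and obesity-resistant libraries. With the replicate block, 1582 genes and 10 potassium channel genes were called in obesity-prone against control libraries, and the Kcnj14 log2 fold change was 3.37 and not past the threshold. With limma the log2 fold change of Kcnj14 in that comparison was 1.17 on log2(FPKM + 0.5) and 2.23 on log2(FPKM + 0.1), neither past the threshold. The stricter filter gave Kcnj14 no value, and nor did the fit of obesity-resistant and control libraries alone. Groups of 3 and 4 libraries and the low counts of Kcnj14 and Kcnn4 limit every fold change given.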
